A study of Caenorhabditis elegans with 15 samples.

Results

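The 10 genes described here belong to the nematode scl family (for SCP-like extracellular protein). They are scl-1, scl-2, scl-3, scl-5, scl-6, scl-7, scl-8, scl-9, scl-10 and scl-11, of 25478 genes with a probe set of their own. They were chosen by their symbols, and they were listed after differences between treated and control worms in these arrays were known. Each of the 10 had 1 probe set of its own among the 29317 probe sets on the array, and none of these probe sets was shared with another gene. The array holds 14 further scl genes.

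The scl proteins are small secreted proteins with an SCP domain and belong to the CAP superfamily, which takes its name from the cysteine-rich secretory proteins of mammals, antigen 5 of insect venom and the pathogenesis-related proteins of plants. Parasitic nematodes secrete many proteins of this superfamily into their hosts. In C. elegans scl-1 is known as a gene that DAF-16, the transcription factor of the insulin pathway, controls and that the long life of insulin receptor mutants needs. For the other 9 genes no role in the worm is stated here.

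Wild-type (N2) young adult worms were kept for 6 h at 20 °C in M9 buffer before total RNA of whole worms was hybridised to Affymetrix gene arrays. There were 5 groups of 3 arrays: the crude hydroethanolic leaf extract of Combretum mucronatum (RE), the control, and the procyanidin-enriched fraction H3 of that extract at 0.02, 0.2 and 2 mg/mL (H3 0.02, H3 0.2 and H3 2). The study's methods give 1% DMSO for the control and 3 independent biological replicates, whereas the labels call the control untreated. The RE concentration is 0.2 mg/mL in the sample titles and the methods but 2 mg/mL in the treatment label, so that RE and H3 0.2 are compared at an equal concentration only if the titles are right. RNA of whole worms cannot tell fewer cells of a type from less RNA per cell.

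The values are log2 expression values on an arbitrary scale, on which a difference of 1 is a 2-fold change. The median of the 15 arrays lay between 3.54 and 3.65, and values below it were not taken as detected. A principal component with 52% of the variance divided the arrays into set A with 8 arrays and set B with 7. Replicates 1 and 2 of the control, H3 0.02 and H3 2 lay in set A and replicate 3 in set B, whereas replicate 1 of H3 0.2 and RE lay in set A and replicates 2 and 3 in set B. Markers of sperm were lower in set B within groups (median log2 difference −1.24), as were those of the hypodermis and cuticle (−1.02), and markers of germline and oocytes were higher (1.26). The last 2 lists varied in size, from −2.66 for col-12 to −0.01 for dpy-7 and from −0.25 for glh-1 to 1.71 for oma-2. Medians were also lower in set B for excretory and gland cells (−0.62), intestine (−0.46), body wall muscle (−0.43), pharynx (−0.43) and neurons (−0.19). Intestine genes ran both ways, from −1.58 for act-5 to 1.17 for mtl-2. Body wall muscle genes did so too, from −0.84 for myo-3 to 0.70 for hlh-1. Pharynx genes ran from −0.78 for tnt-4 to 0.08 for pha-4, and neuron genes from −0.60 for rab-3 to 0.03 for snb-1. Of 43 tissue marker genes, 40 were above the median on every array, and the others were the sperm genes peel-1, spe-9 and msp-3. Nothing in the labels names these sets, and the part of these marker differences in the results was not tested. Values within the sets are given below beside the main results. Where the arrays of groups are said to overlap or not, this describes values only. The share of all probe sets that separate in the same way was not counted.

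The 10 genes lie together in 1 stretch of 25381 bp on chromosome IV (WBcel235, IV:13047148-13072528). Their order along the reference is scl-9, scl-10, scl-11, scl-1, scl-2, scl-3, scl-5, scl-6, scl-7 and scl-8. Between them lie 6 unlisted genes: the non-coding F49E11.12 and C39E9.16, the protein-coding F49E11.7 and the cuticle collagen gene col-131, and the pseudogenes F49E11.8 and scl-4. The non-coding C39E9.16 (IV:13071109-13071228) lies inside the span of scl-7 (IV:13070442-13071270), so that signals of these 2 genes could mix. Neighbouring copies of a family can also share sequence, and cross-hybridisation between their probes was not tested.

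Levels within the cluster fell into a detected and an undetected part. scl-2 (IV:13057710-13059062) had the highest values, 10.08 to 11.79, at the 98.7th percentile of an array on average. scl-5 (IV:13064015-13065159) lay at 6.45 to 7.87 and scl-3 (IV:13059584-13060695) at 5.05 to 7.13, and these 3 genes were above the array median on all 15 arrays. scl-11 (IV:13051373-13052219) was above it on 12 of 15 arrays, which were the treated ones. The other 6 genes (scl-1, scl-6, scl-7, scl-8, scl-9 and scl-10) stayed below it on every array, at 1.42 to 3.23 over 90 values. Values of different probe sets are not levels per length, so that this order does not rank the transcripts.

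scl-11 was higher in every treated group than in the control. In RE worms it had log2 values of 7.83, 6.25 and 5.58. Along the H3 series it had 3.15, 3.20 and 2.63 in the 3 control arrays, 8.38, 8.13 and 6.43 at H3 0.02, 7.90, 6.16 and 5.45 at H3 0.2, and 7.31, 7.31 and 5.77 at H3 2. All 12 treated arrays lay above all 3 control arrays, and the lowest treated value was 5.45.

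The log2 difference of scl-11 from the control was 4.65 ± 0.73 at H3 0.02 (SE; 95% confidence interval 3.07 to 6.24), 3.51 at H3 0.2 (1.93 to 5.09) and 3.81 at H3 2 (2.22 to 5.39), and RE gave 3.56 (1.98 to 5.14), with the same SE throughout. These are 25.2-fold, 11.4-fold, 14-fold and 11.8-fold. Since the control arrays were below the array median, each is at best a lower bound. These differences describe values on which the gene was selected, and they carry no test here.

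**Figure D1:**
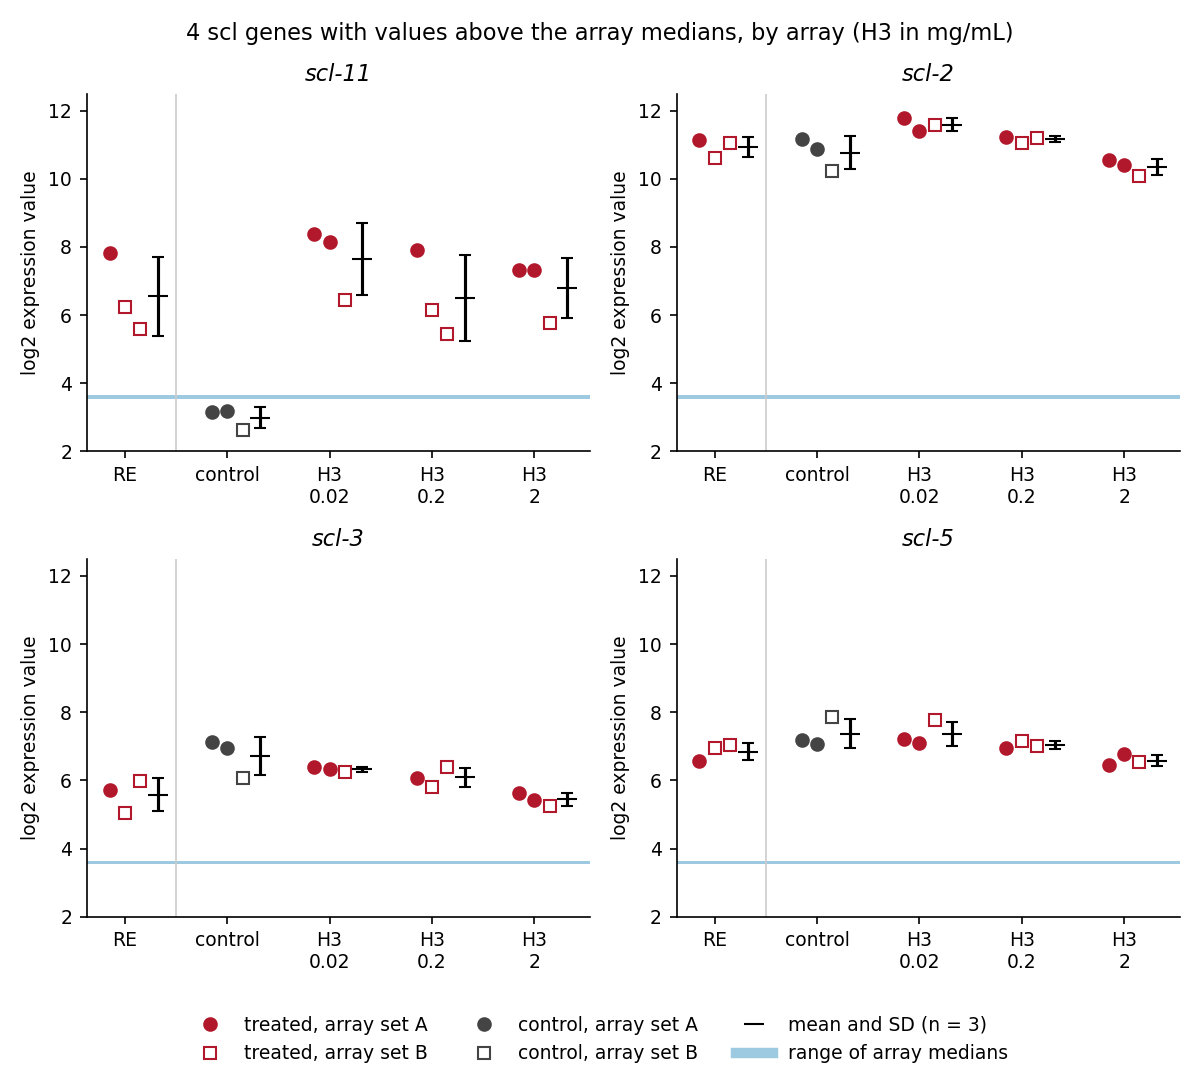
Log2 expression values of scl-11, scl-2, scl-3 and scl-5 (vertical axes) on each of the 15 arrays, by group with H3 in mg/mL; filled circles are arrays of set A, open squares arrays of set B, red is treated and grey is control, the black bar is the mean with its SD (n = 3) and the blue band the range of array medians (3.54 to 3.65). Treated scl-11 lies at 5.45 to 8.38 and control scl-11 at 2.63 to 3.20, whereas the groups of the other 3 genes lie closer together.

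scl-11 also differed between the array sets. Within groups it was lower in set B than in set A by a log2 difference of −1.58, which is the widest such difference among the 10 genes. Treated arrays of set A had 7.31 to 8.38 against 3.15 to 3.20 in control arrays of set A, and treated arrays of set B had 5.45 to 6.43 against 2.63 in the 1 control array of set B. The treated arrays were thus above the control arrays within both sets. A fit that takes the set as a block gave 4.65 for H3 0.02, 4.04 for H3 0.2, 3.81 for H3 2 and 4.09 for RE.

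scl-2 was the gene with the clearest order over the H3 concentrations. RE worms had 11.13, 10.61 and 11.06. Along the H3 series scl-2 had 11.18, 10.88 and 10.24 in the control, 11.79, 11.40 and 11.58 at H3 0.02, 11.21, 11.06 and 11.20 at H3 0.2, and 10.55, 10.40 and 10.08 at H3 2. The 3 arrays of H3 0.02 lay above all control arrays, those of H3 0.2 and H3 2 overlapped the control range, and the 3 H3 groups did not overlap one another. The log2 difference from the control was 0.83 at H3 0.02 (0.34 to 1.32), 0.39 at H3 0.2 and −0.42 at H3 2, and 0.17 for RE (SE 0.23 each). Within set A and set B it was 0.57 and 1.34 at H3 0.02 and 0.18 and 0.89 at H3 0.2. At H3 2 it was −0.55 and −0.15, and for RE 0.10 and 0.60. Set B has only replicate 3 of the control, H3 0.02 and H3 2, and set A only replicate 1 of H3 0.2 and RE.

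scl-3 was lower at the highest H3 concentration. In RE worms it had 5.71, 5.05 and 5.98. The H3 series gave 7.13, 6.96 and 6.08 in the control, 6.39, 6.34 and 6.24 at H3 0.02, 6.06, 5.81 and 6.39 at H3 0.2, and 5.64, 5.43 and 5.26 at H3 2. The H3 2 and RE arrays lay below every control array, whereas those of the lower H3 concentrations overlapped the control through its replicate 3. Against the control the log2 difference was −0.40 at H3 0.02, −0.63 at H3 0.2 and −1.28 at H3 2 (−1.89 to −0.67, 2.43-fold), and RE gave −1.14, with an SE of 0.28. Within set B, where the control has 1 array, the differences were 0.16 at H3 0.02, 0.02 at H3 0.2 and −0.82 at H3 2, and RE gave −0.57.

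scl-5 had 6.56, 6.95 and 7.03 in RE worms. For the H3 series the values were 7.18, 7.07 and 7.87 in the control, 7.22, 7.10 and 7.77 at H3 0.02, 6.94, 7.16 and 7.01 at H3 0.2, and 6.45, 6.77 and 6.53 at H3 2. The H3 2 and RE arrays lay below the control arrays, and the other groups overlapped them. Its log2 difference from the control was −0.01 at H3 0.02, −0.33 at H3 0.2 and −0.79 at H3 2, and RE gave −0.53 (SE 0.23). Unlike the other detected scl genes, scl-5 was higher in set B within groups (0.37). Its difference from the control within set A and set B was −0.18 and −0.78 at H3 0.2. At H3 2 it was −0.52 and −1.35, and for RE −0.56 and −0.88. Set B has only replicate 3 of the control and H3 2, and set A only replicate 1 of H3 0.2 and RE.

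The 6 genes below the median differed from the control by log2 differences of −0.24 to 0.41. Among them scl-6 had the widest spread, 1.71 to 3.20, and its highest value belonged to H3 0.2 replicate 1. The other 2 H3 0.2 arrays had 1.73 and 1.79, against 1.81, 1.97 and 1.71 in the control. scl-1, the gene tied to DAF-16, lay between 2.30 and 2.93 on all arrays, with log2 differences from the control of 0.15, 0.01 and 0.03 at rising H3 concentrations and 0.20 for RE. At these signals no change of the 6 genes could be measured, and an absence of change is not shown.

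A probe set was called higher or lower at an adjusted p of at most 0.05 from limma, over all 29317 probe sets, with a log2 difference of at least 1 in size. At H3 0.02, 1 of 10 scl genes was called higher and 0 lower, beside 0.304% and 0.321% of all probe sets. At H3 0.2, 1 was called higher and 0 lower, beside 0.46% and 0.641%. At H3 2, 1 was called higher and 1 lower, beside 0.665% and 0.901%, and for RE 1 was called higher and 0 lower, beside 0.399% and 0.536%. The gene called higher was scl-11 each time and the gene called lower was scl-3. As the list was selected on these contrasts, nothing is read from the counts. The median log2 difference of the 10 genes was 0.06, 0.00 and 0.09 at rising H3 concentrations and 0.12 for RE, beside 0.00, 0.02, 0.02 and 0.01 over all probe sets.

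Several of these calls were lost with 1 array fewer. That of scl-11 was lost without H3 0.02 replicate 1 or 2 at H3 0.02 (log2 differences 4.29 and 4.41), without any control array or H3 0.2 replicate 1 or 2 at H3 0.2 (2.81 to 3.68), without H3 2 replicate 1 or 2 or control replicate 1 at H3 2 (3.55 to 3.89), and without any control array or RE replicate 1 or 2 for RE (2.92 to 3.71). The call of scl-3 at H3 2 was lost without any H3 2 array or control replicate 1 or 2 (−1.38 to −1.08). It was also lost with the test named in the study's methods (adjusted p = 0.0554). Fitting only the 2 groups compared ended it too (adjusted p = 0.165, limma). The test of the study's methods did not call scl-11 at H3 0.2 or for RE either. For RE, scl-3 was called only without control replicate 3 (−1.46), within set A (−1.33) or with the set as a block (−1.04).

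**Figure D2:**
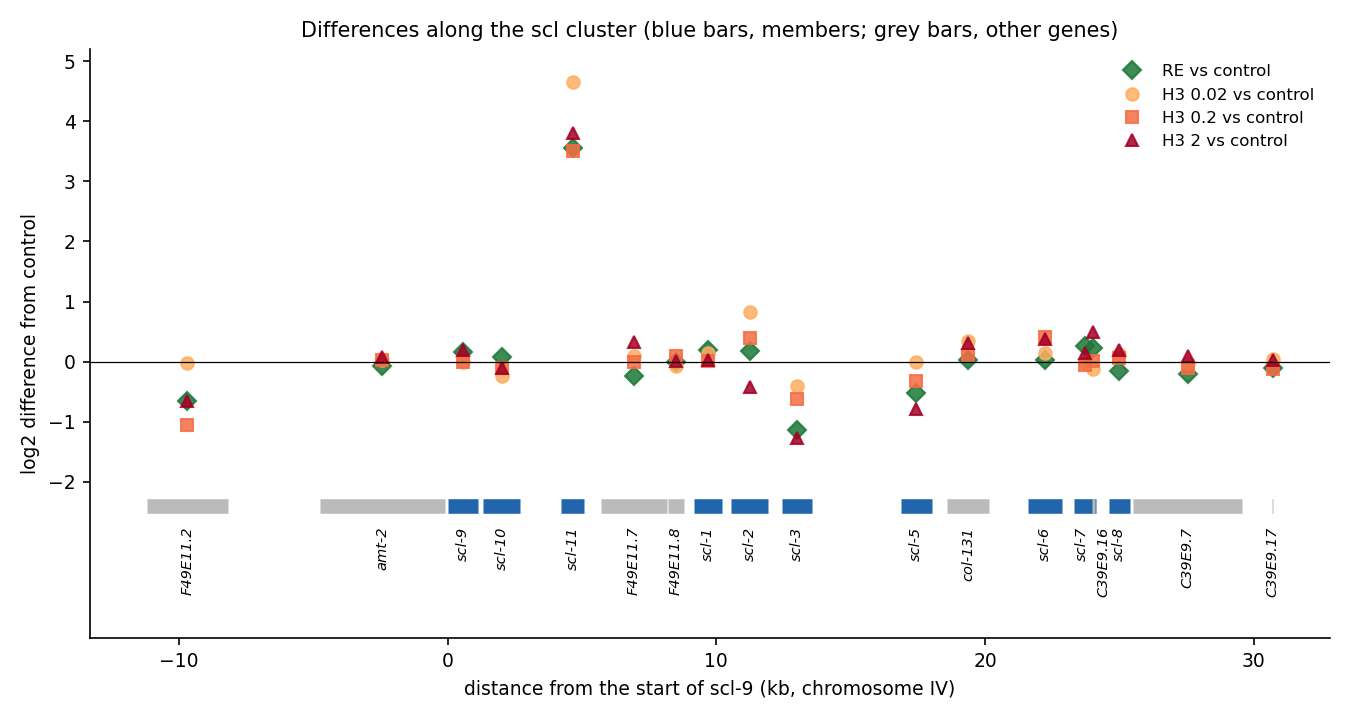
Log2 difference from the control (vertical axis) of each gene with a probe set along the cluster, by distance from the start of scl-9 in kb; green diamonds are RE, and circles, squares and triangles are H3 at 0.02, 0.2 and 2 mg/mL, with blue bars for the 10 scl genes and grey bars for other genes. Only scl-11 lies above 1, at 3.51 to 4.65, while the genes on either side of it in the plot, scl-10 and F49E11.7, lie well below that. scl-10 was below the array median on every array.

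The genes around scl-11 had no difference of that size. scl-10, the nearest gene with a probe set on one side, had log2 differences from the control of −0.24, −0.11 and −0.10 at rising H3 concentrations and 0.08 for RE. It was below the array median on every array, so that an absence of change is not shown. Of the genes between and next to the scl genes, 8 had a probe set, and none of them was called in any comparison with the control. Over all probe sets 0.304% to 0.665% were called higher and 0.321% to 0.901% lower, so that nothing is read from this lack of calls. The log2 differences of the 8 genes ran from −1.06, for F49E11.2 at H3 0.2, to 0.50, and the smallest adjusted p from limma was 0.167. Of these genes, amt-2, F49E11.8, C39E9.16 and C39E9.17 were below the array median on every array.

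Whether the treatments differed from one another was tested directly, as 4 comparisons between treatments over the 10 genes. Limma called none of these 40 differences, and 5 had an unadjusted p under 0.05. Between H3 0.2 and H3 0.02, 0 of 10 genes and 0% of all probe sets were called (823 probe sets and 0 scl genes had an unadjusted p under 0.05). Between H3 2 and H3 0.02, 0 of 10 genes were called, beside 0.0375% or 11 of all probe sets, and 1288 probe sets and 3 scl genes had an unadjusted p under 0.05. Between H3 2 and H3 0.2, 0 of 10 genes and 0% of probe sets were called (1216 and 2 under an unadjusted p of 0.05), and the same holds for RE and H3 0.2 (652 and 0). The test named in the study's methods also called 0 of the 10 genes in all 4 comparisons.

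The widest of these differences was that of scl-2. At H3 2 its mean was 10.34, against 11.59 at H3 0.02, a log2 difference of −1.25 (−1.74 to −0.76, 2.38-fold, adjusted p = 0.16 from limma). The 3 H3 2 arrays lay below the 3 H3 0.02 arrays. Blocking on the array set gave the same difference with an adjusted p of 0.018, which passes both limits. No other fit tried called it. The adjusted p was 0.0597 with the replicate number as a block, 0.324 with the methods' test and 0.681 with only the 2 groups compared. The difference was −1.12 within set A and −1.50 within set B, where each of these groups has only its replicate 3. Against H3 0.2 the H3 2 value of scl-2 was lower by a log2 difference of −0.81 (−1.30 to −0.32, adjusted p = 0.978), again with no overlap, and H3 0.2 against H3 0.02 gave −0.44 (adjusted p = 0.999).

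scl-3 and scl-5 were also lowest at H3 2 among the H3 groups. The log2 difference between H3 2 and H3 0.02 was −0.88 for scl-3 (−1.49 to −0.27, adjusted p = 0.818) and −0.78 for scl-5 (−1.28 to −0.29, adjusted p = 0.707 from limma), and the arrays of the 2 groups did not overlap for either gene. Against H3 0.2, H3 2 differed by −0.65 for scl-3 and by −0.46 for scl-5. None of these differences passed the test after adjustment, and no weight is placed on the lack of overlap.

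For scl-11 no difference between H3 concentrations passed the test. H3 0.2 against H3 0.02 gave a log2 difference of −1.14 (−2.73 to 0.44, adjusted p = 0.999 from limma), or −0.62 with the set blocked. H3 2 against H3 0.02 gave −0.85 (−2.43 to 0.73, adjusted p = 1), and H3 2 against H3 0.2 gave 0.30 (−1.29 to 1.88, adjusted p = 0.983), whose sign turned with the block (−0.23). Over both array sets the 3 groups overlapped, but within each set the H3 0.02 arrays were the highest. Set A had 8.38 and 8.13 at H3 0.02, 7.90 at H3 0.2 and 7.31 and 7.31 at H3 2, and set B had 6.43 at H3 0.02, 6.16 and 5.45 at H3 0.2 and 5.77 at H3 2. H3 2 was lower than H3 0.02 in 3 of 3 same-numbered pairs of arrays (−1.06, −0.82 and −0.66), with an interval of −1.48 to −0.21 when the set was blocked (adjusted p = 0.381).

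Between RE and H3 0.2 no scl gene passed the test. The log2 difference between RE and H3 0.2 was 0.05 for scl-11 (−1.53 to 1.63, adjusted p = 1 from limma), −0.22 for scl-2, −0.51 for scl-3 and −0.19 for scl-5. Same-numbered arrays of scl-11 differed by −0.07, 0.09 and 0.13, and with the replicate number as a block its interval was −0.77 to 0.87, or −0.58 to 0.69 with the array set blocked.

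**Figure D3:**
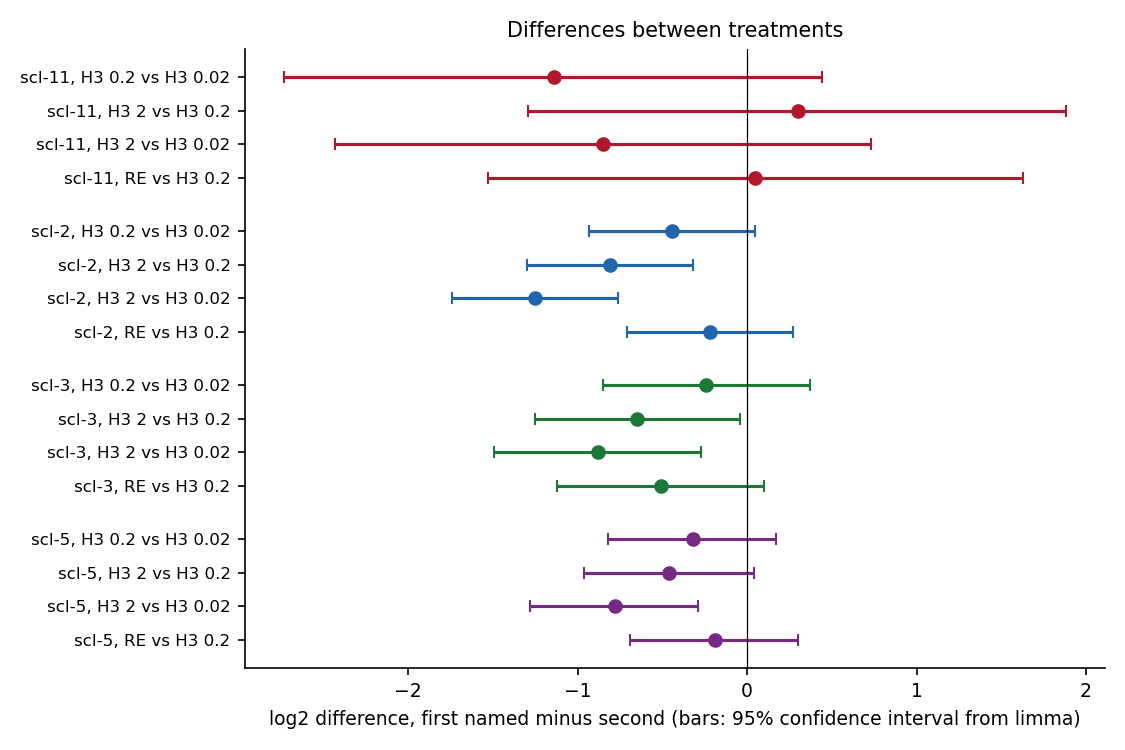
Log2 difference between treatments (horizontal axis, first named minus second) with its 95% confidence interval from limma for scl-11 (red), scl-2 (blue), scl-3 (green) and scl-5 (purple). Intervals of H3 2 against H3 0.02 lie below 0 for scl-2, scl-3 and scl-5, whereas all 4 intervals of scl-11 cross 0.

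The genes whose values over the 15 arrays were most like those of scl-11, among 25519 probe sets of 1 gene outside the family, were B0563.9 (Pearson r = 0.987), mfsd-8.4 (0.978), a gene of the major facilitator family of transporters, and Y94H6A.10 (0.974). Within the array sets r was 0.986, 0.983 and 0.972. B0563.9 and mfsd-8.4 were called higher in all 4 treated groups, with control means of 2.40 and 2.37. Y94H6A.10, with a control mean of 3.16, was called higher only at H3 2. Most like scl-3 were C14C6.5 (0.935), nspg-8 (0.924), of a nematode-specific peptide family, and hpo-15 (0.913), and C14C6.5 was called lower at H3 2. The arrays share groups and sets, so that these coefficients describe likeness and carry no test. The genes were picked for likeness on these same arrays, so that their calls follow from the choice and carry no test either.

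Of 17 further superfamily genes on the array, the 14 other scl genes with vap-1, vap-2 and lon-1, 3 were above the median on every array (lon-1, scl-23 and vap-2) and 11 below it on every array. None was called higher in any treated group, beside 0.304%, 0.46% and 0.665% of all probe sets at rising H3 concentrations and 0.399% for RE. At such shares the lack of a call in 17 genes is not read as a result. vap-2, which encodes a venom-allergen-like protein, was called lower at H3 0.2, under RE and at H3 2, beside 0.641%, 0.536% and 0.901% of all probe sets. No other gene of the list was called.

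vap-2 had log2 values of 6.36, 5.22 and 5.23 in RE worms. In the H3 series it had 8.70, 8.88 and 7.31 in the control, 7.18, 7.12 and 5.61 at H3 0.02, 5.95, 5.06 and 5.40 at H3 0.2, and 4.92, 5.57 and 4.82 at H3 2. All 12 treated arrays lay below all 3 control arrays, the opposite of scl-11. The log2 difference from the control was −1.66 at H3 0.02 (adjusted p = 0.282 from limma), −2.83 at H3 0.2 (7.12-fold, adjusted p = 0.0121) and −3.20 at H3 2 (9.18-fold, adjusted p = 0.00433). RE gave −2.70 (6.49-fold, adjusted p = 0.018), and the SE was 0.51. vap-2, like lon-1, scl-21 and scl-12 below, was named for the size of its difference from the control. The adjusted p-values of these genes against the control thus describe values and carry no test here. vap-2 was also lower in set B within groups (−1.06). Treated arrays had 4.92 to 7.18 against 8.70 to 8.88 in control arrays of set A, and 4.82 to 5.61 against 7.31 in set B.

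With the set blocked vap-2 also passed at H3 0.02 (−1.66, adjusted p = 0.00121). Fitting only the 2 groups compared ended its call (adjusted p = 0.104 at H3 0.2, 0.0518 at H3 2 and 0.165 for RE). At H3 0.2 the call was lost without control replicate 1 or 2 or H3 0.2 replicate 2 or 3 (−2.80 to −2.54), and for RE without control replicate 1 or 2 or RE replicate 2 or 3 (−2.51 to −2.41). Between H3 2 and H3 0.02 vap-2 differed by −1.54 (adjusted p = 0.853 from limma).

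lon-1, a CRISP-like gene known to limit body length downstream of the DBL-1 TGF-beta signal, had 8.38, 8.03 and 8.09 in RE worms. Its H3 series was 7.94, 7.64 and 7.06 in the control, 8.52, 8.20 and 7.67 at H3 0.02, 8.51, 8.15 and 8.19 at H3 0.2, and 8.94, 8.64 and 7.90 at H3 2. Its log2 difference from the control was 0.58, 0.74 and 0.94 at rising H3 concentrations and 0.62 for RE (SE 0.29), and none passed (adjusted p = 0.131 from limma at H3 2). Over both array sets H3 0.02 (from 7.67) and H3 2 (from 7.90) overlapped the control (up to 7.94). Within each array set the treated arrays lay above the control arrays. They were at 8.20 to 8.94 against 7.64 to 7.94 in set A. In set B they were at 7.67 to 8.19 against 7.06 in its 1 control array. With the set blocked the differences were 0.58, 0.94 and 0.94 and, for RE, 0.82 (adjusted p = 0.0592, 0.0028, 0.00148 and, for RE, 0.00707), all under the limit of 1. At H3 2 lon-1 was called without H3 2 replicate 3 (1.24). scl-21 had log2 differences of 0.70, 0.32, 0.62 and, for RE, 0.48, and scl-12 had −0.13, 0.40, 0.35 and 0.02, both below the array median and not called.

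**Figure D4:**
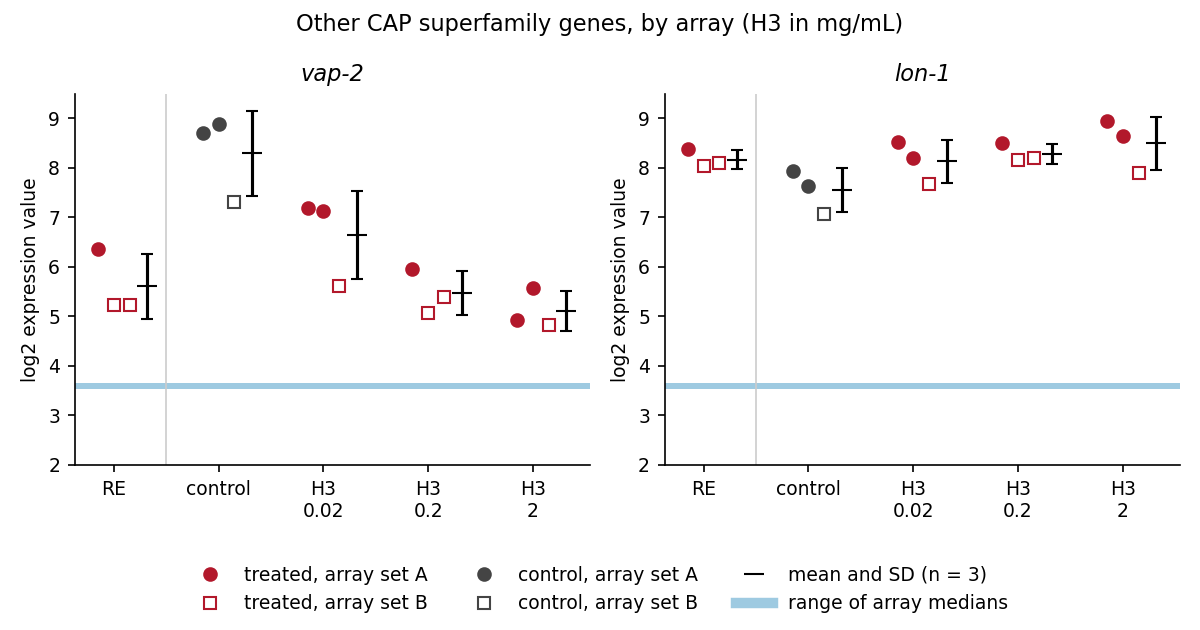
Log2 expression values of vap-2 and lon-1 (vertical axes) on each of the 15 arrays, by group with H3 in mg/mL; filled circles are arrays of set A, open squares arrays of set B, red is treated and grey is control, with the mean and SD (n = 3) as black bars and the range of array medians in blue. Treated vap-2 lies at 4.82 to 7.18 and control vap-2 at 7.31 to 8.88, and treated lon-1 lies above control lon-1 within each array set, at 8.20 to 8.94 against 7.64 to 7.94 in set A and at 7.67 to 8.19 against 7.06 in set B.

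Since scl-1 is tied to the insulin pathway, 29 genes of that pathway and its DAF-16 targets were examined too. None was called higher in any treated group, beside 0.304%, 0.46%, 0.665% and, for RE, 0.399% of all probe sets. Called lower were 1, 2 and 1 at rising H3 concentrations and 2 for RE, beside 0.321%, 0.641%, 0.901% and, for RE, 0.536%. The list was not split by the direction in which DAF-16 acts on each gene, so that these counts give no direction of the pathway. sod-3, the mitochondrial superoxide dismutase gene often used as a DAF-16 reporter, stayed below the array median, with log2 differences from the control of −0.07, −0.07, 0.00 and, for RE, −0.24. The receptor gene daf-2 had −0.27, −0.14, −0.30 and −0.05, and daf-16 itself had 0.15, 0.16, 0.25 and 0.20, and neither was called.

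The genes called lower were dod-17 and mtl-1. Both were named for the size of their differences from the control, as were pept-1 and fat-7. Their adjusted p-values against the control thus describe values and carry no test here. dod-17, a gene found downstream of DAF-16, had log2 differences of −1.18 (adjusted p = 0.0232), −1.66 (adjusted p = 0.0015) and −1.48 (adjusted p = 0.00283) at rising H3 concentrations and −1.34 for RE (adjusted p = 0.00761, limma). Its means were 2.44, 1.96, 2.14 and 2.28 in these groups, against 3.62 in the control, so that the treated values were below the array median. Its control arrays were at 3.29, 3.83 and 3.73, the first below that median and the others just above it, so that these differences are at best lower bounds. At H3 0.02 its call was lost without any H3 0.02 array or control replicate 2 or 3 (−1.25 to −1.07). Fitting only the 2 groups compared ended its call in every group (adjusted p = 0.16, 0.0609, 0.0528 and, for RE, 0.131).

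mtl-1, a metallothionein gene, had log2 differences of −0.98 at H3 0.02 (adjusted p = 0.425), −1.72 at H3 0.2 (adjusted p = 0.025), and −1.36 at H3 2 (adjusted p = 0.0601, limma), and RE gave −1.94 (adjusted p = 0.0137). With the replicate number as a block it passed at H3 2 too (adjusted p = 0.000588), as it did when the set was blocked (adjusted p = 0.000932). A filter on low values also let it pass there (adjusted p = 0.0471, limma). At H3 0.2 its call was lost without control replicate 1 or 2 or H3 0.2 replicate 2 or 3 (−1.75 to −1.44), and for RE without control replicate 1 or 2 or RE replicate 2 or 3 (−1.97 to −1.62). Fitting only the 2 groups compared also ended both calls (adjusted p = 0.166 and, for RE, 0.145). The methods' test ended the call at H3 0.2 (adjusted p = 0.057) but not that for RE (adjusted p = 0.036). The intestinal peptide transporter gene pept-1 (−1.18, −1.45, −1.36 and −1.49) and the fatty acid desaturase gene fat-7 (1.00, 1.53, 1.31 and 1.53) had differences of 1 log2 unit or more but were not called. daf-28, an insulin-like ligand gene named here after its values were seen, was not called either, with log2 differences of 0.71, 1.27 and 1.45 at rising H3 concentrations and 0.89 for RE (adjusted p = 0.836, 0.163, 0.0686 and, for RE, 0.468 from limma). Its arrays did not overlap those of the control at H3 0.2, at H3 2 or under RE, which describes values only. pept-1 and fat-7 also differed between the array sets within groups, by −1.02 for pept-1 and 2.36 for fat-7 (set B minus set A).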

How the data were processed

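The authors deposited log2 values for 29317 probe sets and 15 arrays after RMA with quantile normalisation. The labels also name Affymetrix Expression Console and Partek. Versions of these tools: not given in the sources used here. No filter was set on the table. The precision is limited by the 3 arrays per group.

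Probe sets were named through the platform annotation, with symbols updated to RefSeq WBcel235 (25546 probe sets of 1 gene, 646 of several, 3125 with none). Limma 3.58.1 in R 4.3.3 (and data.table, version 1.17.8) fitted 1 mean per group to all 15 arrays. There were 8 comparisons, each with Benjamini-Hochberg adjustment over all probe sets. Figures were drawn with Python. The fit was tested on simulated data before use.

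The 10 genes, the gene lists and the array sets were chosen with earlier results of these data known. All 10 were named, with up to 4 other superfamily genes and up to 4 insulin-list genes by largest difference from the control, sod-3, daf-16 and daf-2, 3 most alike genes for the 2 scl genes with the widest range of group means, and neighbours in the cluster.

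Arrays with the same replicate number deviated together (every residual correlation over 0.1) for H3 0.02 and H3 2 against the control, H3 2 against H3 0.02, and RE against H3 0.2. Replicate 2 did not in the other comparisons. In the first group of comparisons arrays of 1 number are also in 1 array set. Alternatives were the array set or the replicate number as a block, each set alone, only the 2 groups compared, an intensity trend, the methods' test, a filter on low values, probe sets of 1 gene, no fold-change limit, and each array left out.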

Additional observations from a re-analysis of the deposited data

Results flagged for a closer look

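scl-2 arrays lay on opposite sides of the control mean at different H3 concentrations. Every H3 2 array lay below the control mean, while every H3 0.02 array and every H3 0.2 array lay above it. The control arrays themselves ran from 10.24 to 11.18, and the arrays of H3 0.2 and H3 2 overlapped that range. The share of all probe sets with such a pattern was not counted. The log2 difference between H3 2 and H3 0.02 was −1.25 and that between H3 2 and H3 0.2 was −0.81. In the direct tests the adjusted p from limma was 0.16 and 0.978, and with the array set blocked 0.018, which is a call, and 0.244 (log2 differences −1.25 and −0.92). With the replicate number as a block it was 0.0597 and 0.499, and neither is a call. Against the control itself the log2 difference at H3 2 was −0.42, with an interval of −0.91 to 0.07. It was −0.55 within set A and −0.15 within set B, where the control and H3 2 each have only their replicate 3.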

How the results depend on the processing

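Scl genes called against the control numbered 1 at H3 0.02, 1 at H3 0.2 and 2 at H3 2, with 1 under RE, and 0 in each comparison between treatments. With the replicate number as a block (paired) these counts stayed at 1, 1, 2, 1 and 0, and mtl-1 at H3 2 was the only vap-2, lon-1, dod-17 or mtl-1 call that changed. With the set blocked there were 2 calls under RE and 1 between H3 2 and H3 0.02 (scl-2). Within set A there were 2 at H3 0.2 (scl-6 and scl-11) and 2 under RE (scl-3 and scl-11), and within set B 0 in all 4 comparisons with the control. In these fits a group with 1 array is assumed to vary like the others. The scl-6 log2 difference within set A, 1.31, rests on H3 0.2 replicate 1 alone. Its value of 3.20 is below the array median, so that it is not read as a change. Fitting only the 2 groups compared gave 0, 0, 1 and, under RE, 0, and the methods' test 1, 0, 1 and, under RE, 0. Leaving out 1 array gave 0 to 1 calls at H3 0.02, 0 to 1 at H3 0.2, 0 to 2 at H3 2, 0 to 1 under RE and 0 to 0 between treatments. An intensity trend, the filter on low values, probe sets of 1 gene and no fold-change limit left these counts as they were. No called difference turned its sign.

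Probe sets called in all were 183, 323, 459 and, under RE, 274. They numbered 408, 651, 907 and 607 with the set blocked, 496, 559, 1106 and 483 within set A, 0, 20, 18 and 23 within set B, 38, 94, 160 and 92 with only 2 groups, 258, 488, 683 and 436 with the replicate block, and 808 at H3 2 and 414 under RE with no fold-change limit. Leaving out 1 array gave 119 to 245, 209 to 466, 290 to 586 and 191 to 437. The 11 between H3 2 and H3 0.02 became 38 with the set blocked, 0 within set B or with only 2 groups, 7 with the methods' test and 5 to 11 with 1 array left out. The 0 between H3 0.2 and H3 0.02 and between H3 2 and H3 0.2 became 2 and 2 with the set blocked and 2 and 4 with the replicate block. The cause was not tested. Signals below the array median limit what 6 of the 10 genes can show.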
